A study of Drosophila melanogaster with 2 samples.

Results

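The genes described here encode the proteins of the heterochromatin system of Drosophila melanogaster. They are the HP1 paralogs HP1a (FBgn0003607), HP1b (FBgn0030082) and HP1c (FBgn0039019), the HP1-binding proteins Su(var)3-7 (FBgn0003598) and Su(var)2-HP2 (FBgn0026427), and the satellite DNA-binding protein D1 (FBgn0000412). The histone H3 lysine 9 methyltransferases Su(var)3-9 (FBgn0263755), egg (FBgn0086908) and G9a (FBgn0040372) complete the set. They are 9 of the 15421 genes in the deposited table. Of these, 8 were found by their symbol and Su(var)3-9, whose symbol is blank in the table, by its full gene name. Chromatin came from whole testes of adult w1118 males, from which accessory glands had been removed by hand. An immunoprecipitate with an antibody against dBigH1 (the dBigH1 group, 1 library) was compared with DNA taken without an antibody (the input group, 1 library). w1118 is a laboratory stock that carries a mutation of the white gene, and both groups share it, the tissue and the pooling of 2000 testes. Whole testes hold germ cells of every stage together with somatic cells, and each value averages over them.

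dBigH1 is the germline linker histone of this fly, a variant of histone H1 that sits on the DNA entering and leaving the nucleosome. Heterochromatin is the compact, repeat-rich part of the genome. Its hallmark in flies is methylation of lysine 9 of histone H3, which methyltransferases write and the chromodomain of HP1 proteins reads. Some of the genes were found as suppressors of variegation, mutations that relieve the silencing of a gene placed next to heterochromatin. The question put to the data was how much dBigH1 signal lay on the genes that encode this machinery, relative to their DNA content.

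The dBigH1 library held 2864636 reads and the input library 12747726 reads. With 1 library per group no value has a replicate check, no p-value was computed, and each comparison describes these libraries. RPKM counts reads per kb of a gene after scaling to the size of the library. In 15419 genes the RPKM reached 1 in the dBigH1 library, the input library or both. Over these the median gene had a log2 ratio of (RPKM + 1), dBigH1 over input, of -0.85, and ratios are given relative to that median gene. Beside it stands the log2 ratio of reads, which uses no pseudocount, is set against its own median and carries a 95% exact Clopper-Pearson interval for counting error. The pseudocount of 1 pulls the ratio of genes with low RPKM toward equality of the libraries before the median is subtracted. Relative to the median gene it can therefore raise or lower a value. The median X-linked gene was at -0.01 by the RPKM ratio and at -0.12 by the read ratio. At the ratio of the median gene, 100 input reads go with 11.2 dBigH1 reads. BigH1, the gene of the precipitated protein, had 439 dBigH1 reads against 168 input reads.

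As a group the heterochromatin protein genes lay close to the median gene. Their median log2 RPKM ratio was -0.09, against 0 for all genes by definition, and 7 of the 9 were within 1.5-fold of the median gene. By the read ratio their median was lower, at -0.21, again against 0 for all genes. HP1b was at least 1.5-fold above it, as were 12.9% of all genes, and HP1c was at least 1.5-fold below it, as were 11.5% of all genes. At 2-fold no member passed in either direction by this ratio, against 5.66% of all genes above and 2.91% below. By the read ratio HP1b was 2.11-fold above the median gene. Judged by the read interval, HP1b alone was wholly above the median gene, as were 17.9% of all genes, and egg alone was wholly below it, as were 9.41% of all genes. A share of 1 in 9 in each direction does not set the members apart from the table as a whole. Summed over the members, 395 dBigH1 reads stood against 3918 input reads, where the median gene's ratio gives 439 dBigH1 reads. That summed read ratio was -0.15 (interval -0.30 to -0.002), while the same sum over all genes was 0.40. The sum treats the reads of the 9 genes as one region. Its interval leaves out the spread between genes, and Su(var)2-HP2 alone gave 123 of the dBigH1 reads.

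**Figure D1:**
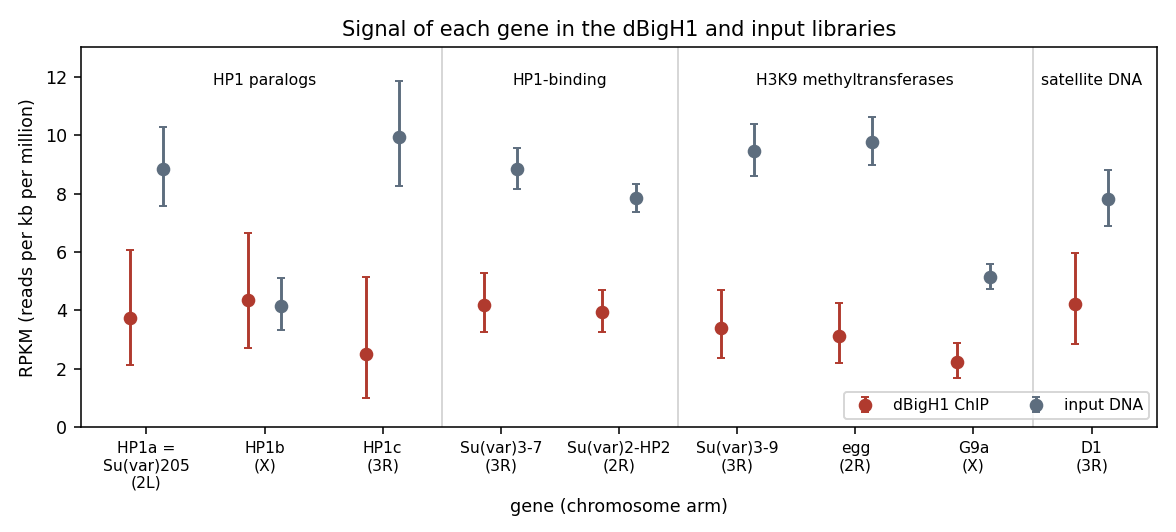
RPKM of each of the 9 genes in the dBigH1 library (red, left of each pair) and in the input library (grey, right), grouped by role, with the chromosome arm under each name and bars for the 95% exact Poisson interval of the reads. HP1b, at 4.35 in dBigH1 and 4.15 in input, is the 1 gene of the 9 whose dBigH1 value is not below its input value. Over all genes the median RPKM was likewise lower in dBigH1, at 4.04, than in input, at 8.18. Both X-linked genes, HP1b and G9a, have the lowest input values.

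The HP1 paralogs share a chromodomain and a chromoshadow domain, and their genes took the highest and the lowest place in the order, with HP1a between them. HP1a, the founding member of the family, binds methylated lysine 9 and is concentrated in pericentromeric heterochromatin. Its gene lies on chromosome 2L at 8209626 to 8211122 (build dm3, minus strand, 1497 bp) and had 16 dBigH1 reads against 169 input reads. RPKM was 3.73 in dBigH1 and 8.86 in input. The read ratio was -0.24 (-1.08 to 0.50). The gene of the protein that defines heterochromatin was thus not distinguishable from the median gene at this depth.

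HP1b encodes a paralog that is found in both euchromatin and heterochromatin. Its gene lies on the X at 8975096 to 8976779 (plus strand, 1684 bp), with 21 dBigH1 reads against 89 input reads, where the median gene's ratio gives 9.97 dBigH1 reads. RPKM was 4.35 in dBigH1 and 4.15 in input. The log2 RPKM ratio was 0.90 above the median gene, higher than that of 93.2% of genes, and the read ratio was 1.08 (0.31 to 1.77), a fold of 2.11. Males carry a single X, and the median X-linked gene had an RPKM of 2.17 in dBigH1 and 4.74 in input. Set against the 2317 X-linked genes, HP1b exceeded 93.3% in dBigH1 RPKM and 29.3% in input RPKM. Both the higher dBigH1 value and the lower input value therefore entered its ratio.

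HP1c encodes the paralog that is found mainly in euchromatin, where it works with the zinc finger proteins woc and row. Its gene lies on 3R at 18571350 to 18572327 (plus strand), and at 978 bp it is the shortest of the 9. It had 7 dBigH1 reads against 124 input reads, where the median gene's ratio gives 13.9. RPKM was 2.50 in dBigH1 and 9.95 in input, the highest input RPKM of the 9. The log2 RPKM ratio was -0.80 and the read ratio -0.99, but on so few reads the interval ran from -2.33 to 0.10 and so reached the median gene. Set directly against each other, HP1b was above HP1c by 2.06 on the log2 scale of reads (exact conditional interval 0.69 to 3.60). With the interval widened for all 36 pairs of members it ran from -0.03 to 4.64.

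The HP1-binding proteins were at the median gene. Su(var)3-7 encodes a zinc finger protein that binds HP1a, and lies on 3R at 9090077 to 9095760 (plus strand, 5684 bp). It had 68 dBigH1 reads against 641 input reads, with an RPKM of 4.18 in dBigH1 and 8.85 in input. The read ratio was -0.08 (-0.46 to 0.28). Su(var)2-HP2, which encodes a large partner of HP1a, was the longest of the genes and the most precisely measured. It lies on 2R at 10494659 to 10505550 (minus strand, 10892 bp) and had 123 dBigH1 reads against 1089 input reads, where the median gene's ratio gives 122. RPKM was 3.94 in dBigH1 and 7.84 in input. The read ratio was 0.01 (-0.27 to 0.28), so that a departure of more than 1.22-fold up or below 0.83 of the median gene lay outside its interval.

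Of the 3 H3 lysine 9 methyltransferase genes, egg had a read interval wholly below the median gene, and the intervals of Su(var)3-9 and G9a included it. Su(var)3-9 encodes the enzyme that methylates lysine 9 in pericentromeric heterochromatin, and lies on 3R at 11085586 to 11089196 (minus strand, 3611 bp). It had 35 dBigH1 reads against 436 input reads, with an RPKM of 3.38 in dBigH1 and 9.47 in input. The read ratio was -0.48, and its interval of -1.02 to 0.02 just reached the median gene. The gene named egg encodes the fly SETDB1, the methyltransferase required for germ cell development, and lies on 2R at 20663057 to 20667437 (minus strand, 4381 bp). It had 39 dBigH1 reads against 546 input reads, where the median gene's ratio gives 61.2. RPKM was 3.11 in dBigH1 and 9.78 in input, the log2 RPKM ratio was -0.54, short of 1.5-fold, and the read ratio was -0.65 (-1.16 to -0.18).

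G9a, whose product adds methyl groups to lysine 9 mainly in euchromatin, lies near the end of the X at 140011 to 148683 (plus strand, 8673 bp). It had 55 dBigH1 reads against 568 input reads, and its RPKM of 2.21 in dBigH1 and 5.14 in input was close to the X-linked medians of 2.17 in dBigH1 and 4.74 in input. Its read ratio was -0.21 (-0.64 to 0.19). Together the methyltransferase genes had 129 dBigH1 reads, where the median gene's ratio gives 174, a summed read ratio of -0.43 (-0.70 to -0.17). That sum treats their reads as one region and holds reads of the overlapping gene described below.

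D1 encodes an AT-hook protein that binds AT-rich satellite DNA and gathers it into chromocentres. It lies on 3R at 5063805 to 5066376 (minus strand, 2572 bp) and had 31 dBigH1 reads against 256 input reads. RPKM was 4.21 in dBigH1 and 7.81 in input, and the read ratio was 0.11 (-0.47 to 0.65). No departure from the median gene was detectable at this depth.

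**Figure D2:**
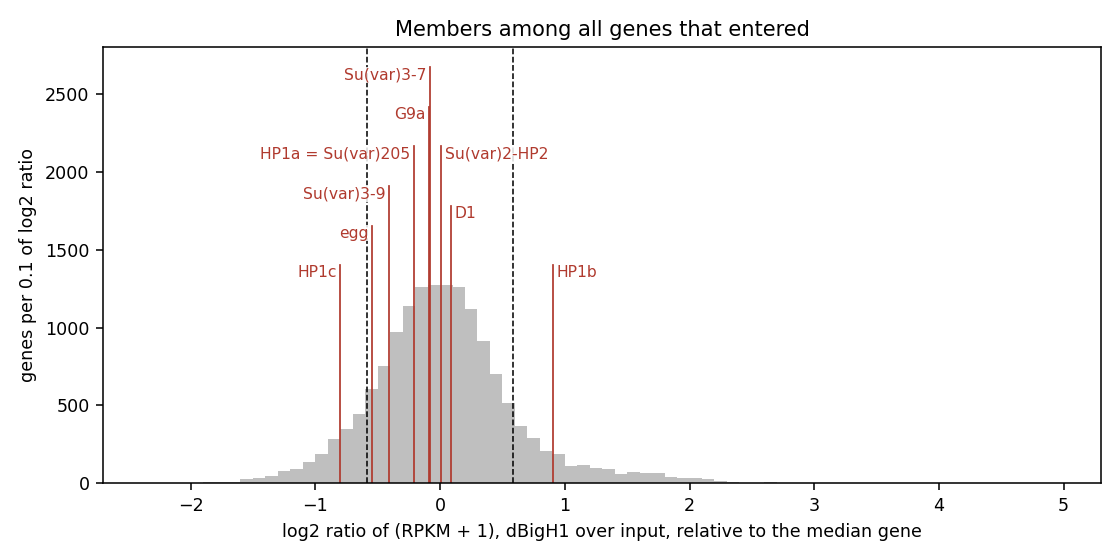
Number of genes per 0.1 of log2 RPKM ratio (dBigH1 over input, pseudocount of 1, relative to the median gene) for the 15419 genes that entered, with a red line at each of the 9 genes and dashed lines at 1.5-fold above and below. The 9 genes run from -0.80 for HP1c to 0.90 for HP1b, and 7 of them lie between the dashed lines.

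From the highest to the lowest log2 RPKM ratio the order was HP1b, D1, Su(var)2-HP2, Su(var)3-7, G9a, HP1a, Su(var)3-9, egg and HP1c. Of the 8 neighbouring pairs in this order, 1 differed beyond counting error, HP1b against D1, with a difference in log2 read ratio of 0.96 and an interval of 0.01 to 1.89. Among all 36 pairs the 95% interval excluded 0 for 9, and 8 of these were the pairs of HP1b with every other member. The remaining pair was Su(var)2-HP2 against egg, at 0.66 (0.11 to 1.24). With intervals widened for 36 pairs, HP1b stayed apart from Su(var)3-9, at 1.56 (0.06 to 2.97), and from egg, at 1.72 (0.25 to 3.10). Against D1, the next in the order, the widened interval of HP1b ran from -0.57 to 2.43 and so included 0. The order from D1 down to HP1c is largely unresolved at this depth. The levels themselves had another order, since dBigH1 RPKM was highest in HP1b, D1 and Su(var)3-7 and lowest in G9a and HP1c.

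All 9 genes lie on the assembled arms 2L, 2R, 3R and X, and none on a heterochromatin scaffold or on chromosome 4. Each was also set against its surroundings, the listed genes within 50 kb on either side that do not overlap it. HP1c and egg had the lowest log2 RPKM ratio of their surroundings, below all 29 and all 21 such genes. For egg the margin was very small, at -0.544 against -0.541 for the lowest of those genes. For HP1c it was -0.80 against -0.64, on 7 dBigH1 reads. Neither rank takes account of counting error. The local medians there were 0.02 and -0.04, so the typical gene within 50 kb was not low. Closer genes varied. By the read ratio, CG17141 (-0.41), which overlaps HP1c, and CG31139 (-0.61) beside it were also below the median gene, while vret was at 0.13. Beside egg, Eps-15 was at -0.23 and Lcp9 at 0.47. Whether HP1c and egg share a low stretch with adjacent genes was not tested. HP1b was above 15 of the 17 genes around it, whose median was 0.23. HP1a was 0.11 below its local median, Su(var)3-7 was 0.10 below, Su(var)3-9 was 0.13 below, and Su(var)2-HP2 was 0.15 below. G9a was 0.41 below and D1 0.37 above the local median.

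**Figure D3:**
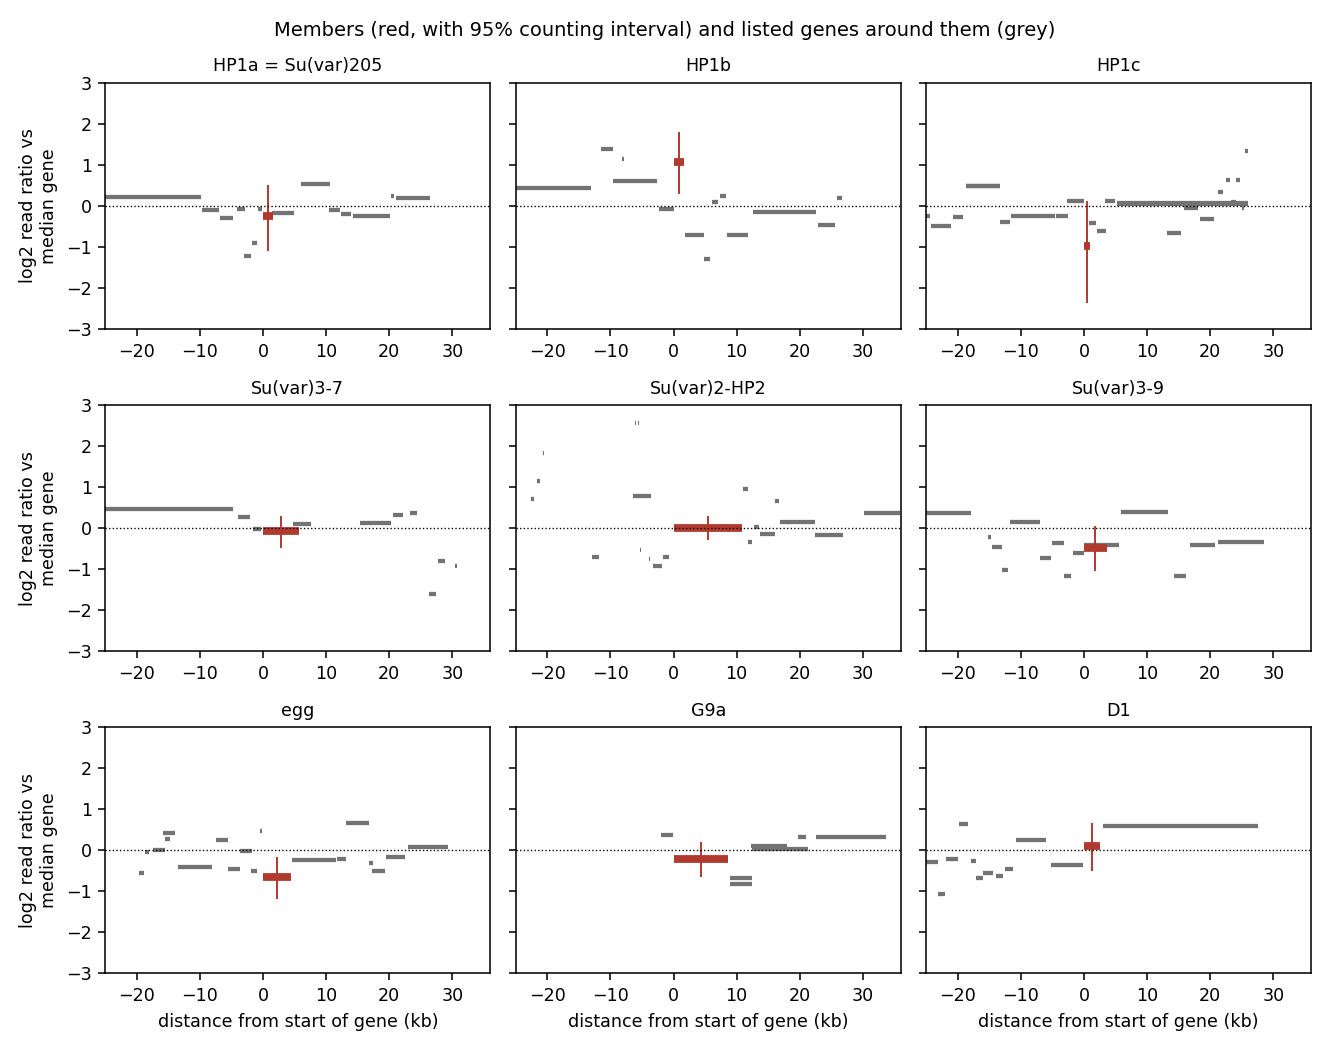
Log2 read ratio (dBigH1 over input, relative to the median gene) of each of the 9 genes (red, with its 95% counting interval) and of the listed genes within 25 kb of it (grey), drawn over their length against the distance from the start of the gene, in the direction of its transcription. HP1c and egg lie under the genes around them, and HP1b lies above the genes next to it on both sides.

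The adjacent genes gave the closest comparison. HP1b is separated from CG7246 by 5 bp and from APC4, which encodes a subunit of the anaphase-promoting complex, by 184 bp. CG7246 had 17 dBigH1 reads against 159 input reads, a read ratio of -0.07 (-0.88 to 0.66), and APC4 had 13 against 191, a ratio of -0.72 (-1.65 to 0.09). The interval of HP1b did not overlap that of APC4 but overlapped that of CG7246. HP1c is 55 bp from vret, a Tudor-domain gene of the piRNA pathway, which was at 0.13 (-0.46 to 0.67). On its other side HP1c overlaps CG17141 by 160 bp, and beyond it the next gene, CG31139, was at -0.61 (-1.55 to 0.20).

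For egg the neighbours were Eps-15, an endocytosis gene, at -0.23 (-0.59 to 0.10) and the cuticle gene Lcp9 at 0.47 (-0.92 to 1.63). D1 lies 400 bp from pum, a translational repressor gene of the germline. pum spans 171340 bp and was at 0.59 (0.53 to 0.65), so it stood above the median gene while the interval of D1 included both. On the other side ird1 was at -0.34 (-0.77 to 0.05). G9a was flanked by CG3038 at 0.38 (-0.37 to 1.07) and CG42376 at -0.82 (-1.68 to -0.07). Su(var)2-HP2 lay between CG33468, at 0.95 (-0.14 to 1.90), and Sec61beta, a subunit gene of the protein translocation channel, at -0.71 (-1.87 to 0.26). Next to HP1a lay CG8451 at 0.54 (0.19 to 0.87) and Ssb-c31a at -0.06 (-1.24 to 0.93). Next to Su(var)3-7 lay Ravus at -0.03 (-0.82 to 0.68) and CG8630 at 0.12 (-0.27 to 0.49). Over the 18 flanking genes, 1 was at least 1.5-fold above the median gene (CG33468, on 11 dBigH1 reads) and 1 at least 1.5-fold below (Sec61beta, on 9 dBigH1 reads).

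Reads in overlapping genes were counted for each gene, which touches 4 of the 9. In all 120 sets of genes with identical coordinates the members had equal reads. Su(var)3-9 lies wholly inside the span of eIF2gamma, the gene of a translation initiation factor subunit with which it shares its first exons, so all its reads also count for that gene. eIF2gamma had 53 dBigH1 reads against 631 input reads, a read ratio of -0.42 (-0.85 to -0.01). The 1925 bp of eIF2gamma outside Su(var)3-9 had 18 dBigH1 reads against 195 input reads, a ratio of -0.28 (-1.06 to 0.42), whose interval held the value of Su(var)3-9. This takes all reads of Su(var)3-9 to be among those of eIF2gamma. Its other neighbours were Set, at -0.61 (-1.39 to 0.08), and CG42404, at 0.39 (0.08 to 0.69).

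The overlaps of the other 3 genes were smaller. CG17141 covers 16.4% of HP1c and was at -0.41 (-1.31 to 0.38). CG8449 covers 15.9% of Su(var)3-7, or 902 bp, and was at 0.11 (-0.43 to 0.60). CG8419 covers 14 bp of HP1a and was at -0.17 (-0.68 to 0.31). The 5 members that overlap no listed gene had a median log2 RPKM ratio of 0.01.

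A wider list of 32 chosen genes took in other genes of heterochromatin and of histone lysine methylation, and is not the whole of the pathway. It held further HP1 paralogs, partners of HP1, enzymes that remove or counteract lysine 9 methylation or write other marks, other proteins of satellite or repeat DNA, and methyltransferases of other histone lysines. By the RPKM ratio none of the 32 was at least 1.5-fold from the median gene, against 12.9% of all genes above and 11.5% below. The list median was 0.01. The read ratio, which uses no pseudocount, put JIL-1 (0.70) and gpp (0.68) at least 1.5-fold above. It put Hmt4-20 (-0.88), Set2 (-0.67), trr (-0.63) and ash1 (-0.59) at least 1.5-fold below. The share of all genes past 1.5-fold by the read ratio is not given here. By the read interval 4 were wholly above the median gene, against 17.9% of all genes, and 4 wholly below, against 9.41%.

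Among the HP1 paralogs, rhi, the germline paralog that marks piRNA clusters, had 57 dBigH1 reads against 460 input reads and a read ratio of 0.15 (-0.28 to 0.55). HP6 was at 0.32 on 7 dBigH1 reads (-1.06 to 1.47) and HP1D3csd at -0.57 on 4 (-2.50 to 0.87). HP1e, a paralog of the male germline, also had 4 dBigH1 reads, at -0.23 (-2.17 to 1.23). None of the 4 intervals excluded the median gene. For the 12 HP1 partners every interval spanned it, and their median log2 RPKM ratio was 0.02. The highest of them was wde, the cofactor of egg, at 0.28 (-0.02 to 0.57), and the lowest by the RPKM ratio was XNP, the fly ATRX, at -0.29 (-0.72 to 0.11). The HP1c partners woc and row were at -0.25 (-0.60 to 0.09) and -0.31 (-0.70 to 0.05).

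Enzymes that oppose or follow lysine 9 methylation lay on both sides. JIL-1, the kinase that keeps heterochromatin from spreading, had 261 dBigH1 reads against 1432 input reads. Its log2 RPKM ratio of 0.58 was just short of 1.5-fold, and its read ratio was 0.70 (0.51 to 0.89). Kdm4B, a demethylase of lysine 9, was at 0.36 (0.18 to 0.53), while its paralog Kdm4A was at -0.42 (-1.16 to 0.24). Hmt4-20, the methyltransferase of histone H4 lysine 20, which acts after HP1, had 34 dBigH1 reads against 557 input reads and the lowest ratio of the list, -0.88 (-1.42 to -0.38). Of the proteins of satellite or repeat DNA, Trl was at 0.14 (-0.08 to 0.36) and prod at -0.33 (-1.07 to 0.33).

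Methyltransferases of other histone lysines lay on both sides of the median gene. Highest was gpp, the H3 lysine 79 enzyme, with 717 dBigH1 reads against 3999 input reads and a read ratio of 0.68 (0.56 to 0.79). Set1, an H3 lysine 4 enzyme, lies on a 3L heterochromatin scaffold and was at 0.46 (0.14 to 0.77), below the scaffold's median of 1.20 over 22 genes. The lowest by the RPKM ratio was ash1, at -0.59 (-0.97 to -0.23), and the X-linked genes Set2 and trr were at -0.67 (-1.19 to -0.19) and -0.63 (-1.14 to -0.16). The 9 genes had a median log2 RPKM ratio of -0.002, against -0.41 for the 3 lysine 9 enzymes, whose own range of -0.54 to -0.09 lay within the range of -0.48 to 0.56 of the others except for egg.

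**Figure D4:**
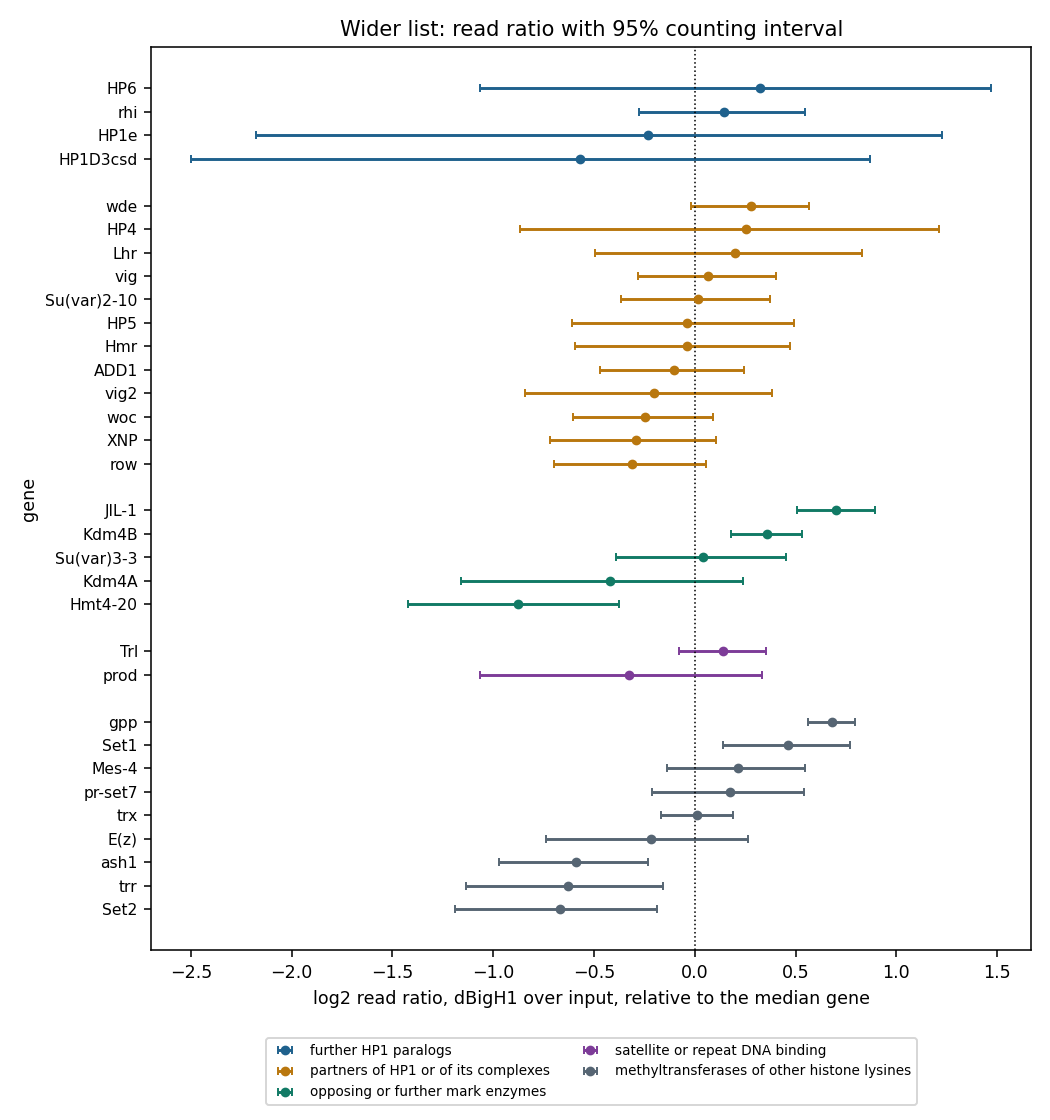
Log2 read ratio (dBigH1 over input, relative to the median gene) with 95% counting interval for the 32 genes of the wider list, coloured by role. The intervals of JIL-1, Kdm4B, gpp and Set1 lie above the median gene and those of Hmt4-20, ash1, trr and Set2 below it. Hmt4-20, trr and Set2 are X-linked, and the median X-linked gene had a read ratio of -0.12. JIL-1, Kdm4B and gpp span 14442, 22271 and 41151 bp. Whether chromosome or length bears on this split was not tested.

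The genes most like the extremes in both libraries were found by the distance between log2 (RPKM + 1) values over the 2 libraries, among genes of 0.5 to 2 times the length. Closest to HP1b was CG1503, also on the X, with 19 dBigH1 reads against 80 input reads, at a distance of 0.02 and among 6977 genes. Closest to HP1c was PCID2, with 9 dBigH1 reads against 161 input reads, also at 0.02 and among 5832 genes. This likeness rests on 2 values per gene.

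**Figure D5:**
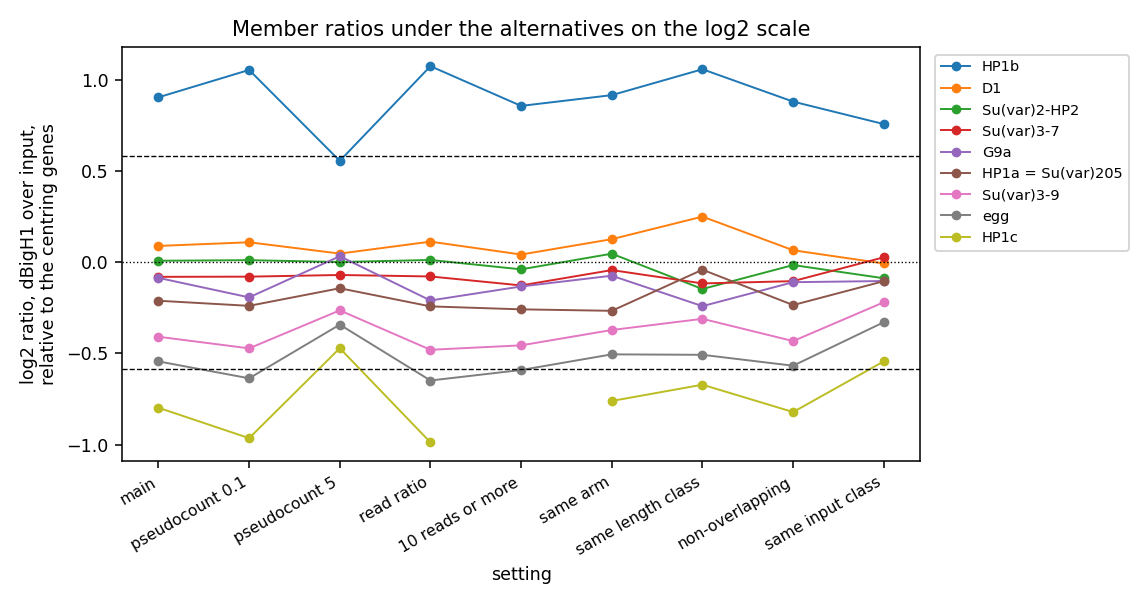
Log2 ratio of each of the 9 genes (dBigH1 over input) under 9 settings of the pseudocount, the filter and the centring, with dashed lines at 1.5-fold. HP1b stays highest in every setting shown, from 0.56 to 1.08, and HP1c is lowest wherever it has a value, from -0.99 to -0.47. HP1c has no value with a minimum of 10 dBigH1 reads.

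The extremes kept their place under most settings of the processing, but their distance from the median gene depended on them. HP1b was highest and HP1c lowest in each of the settings plotted in which they had a value. On the deposited MAnorm score, which is standardized over all genes and is no log2 fold change, HP1b was at 1.90, higher than 96.2% of genes, while egg was at -1.05 and HP1c at -1.18. Some genes between these ends changed sign with the setting. D1 ran from -0.01 to 0.25, Su(var)2-HP2 from -0.15 to 0.05, Su(var)3-7 from -0.13 to 0.03 and G9a from -0.24 to 0.03, and no direction is given for them.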

How the data were processed

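The deposited table gives, for each gene, coordinates in build dm3 and 1 log2 RPKM value per library, per the file headers. The authors' MAnorm column, labelled there as a fold change, has a mean near 0 and an SD of 1.00, so it was treated as a score. The submitters' processing notes name Bowtie2, R 2.15, CASAVA 1.9 and FastQC 0.10. How reads were assigned to genes, and the treatment of duplicate or multiply matching reads, is not stated in the labels or headers. Per the labels' protocols, chromatin was sheared to 200 to 500 bp and libraries were amplified for 18 PCR cycles from 3.5 ng of DNA and read for 50 nt. Gene spans run from start to end and include introns.

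After 1 was subtracted from the exponentiated log2 values, 100% of values in each library were whole reads within 0.01 read, against 1.82% of dBigH1 and 2.12% of input values with no offset, so the values were taken as log2(RPKM + 1), and library totals follow from the value of a single read. The median gene had 20 dBigH1 reads and 197 input reads, and every listed gene had at least 1 dBigH1 read. Reads carry no molecular identifiers, so intervals cover counting error only. Intervals for pairs of genes are exact conditional ones, at 95% and at 99.9% to cover 36 pairs. Calculations used pandas 2.3.3 and SciPy 1.17.1, and were tested on simulated reads. Of the table's genes, 13051 have an ID in a RefSeq table for Release 6, used for names only. It linked ADD1, Set1 and HP1D3csd to CG numbers, and Hip proved to be a synonym of HP4 and was counted once.

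The HP1a gene is Su(var)205 in the table. The genes, the wider list and the comparisons were chosen with earlier results of these data known. Named genes are all members, the genes that overlap or flank them, the highest and lowest of each role group of the wider list, BigH1 and the nearest genes in both values. Other genes of the wider list were named after their values were seen. The alternatives were pseudocounts of 0.1 and 5, no pseudocount, other filters, other centrings, a 2-fold threshold, a 99% interval and the MAnorm score.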

Additional observations from a re-analysis of the deposited data

How the results depend on the processing

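No paired analysis was possible because each group had 1 library. Of 89 log2 values of single members under other settings, 81 differed from the reported value by less than the reach of that gene's read interval around its read ratio. The other 8 came from leaving out the centring, and neither HP1b nor HP1c changed sign. That measure is lenient for genes with few reads, whose intervals are wide. HP1c without centring, at -1.65 in place of -0.80, still counted among the 81. On the MAnorm score, which carries no fold and so gives no count past 1.5-fold, 8 of the 9 members kept their side of the median gene, and G9a did not. Without centring the medians were -0.93 for the members and -0.84 for the wider list, 0 members were above and 8 below 1.5-fold, and 8 intervals excluded equality, by construction, since the median gene was at -0.85. The members at least 1.5-fold above numbered 0 in place of 1 with a pseudocount of 5, or with the log2 RPKM ratio at 2-fold. Those below numbered 2 in place of 1 with a pseudocount of 0.1 or with none, egg joining HP1c. They numbered 0 with a pseudocount of 5, at 2-fold, or with centring on genes of like input RPKM, an alternative chosen after seeing the data. The cause of these changes was not tested. With at least 10 dBigH1 reads HP1c dropped out and egg, at -0.59, was the 1 gene below. Requiring both libraries to reach an RPKM of 5 left no member and 7 genes of the wider list, with a median of -0.31, and on the MAnorm score that list's median was -0.10. Depth limits HP1c, HP1b and HP1a most, with 7, 21 and 16 dBigH1 reads.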
